A study of Canis lupus familiaris with 8 samples.

Results

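The genes described here are those of NRF2 signalling, of the glutathione and thioredoxin systems, and of iron storage. They were taken by gene symbol from a list of 37 members. Of these, 35 were found among 34637 gene symbols in all, and PRDX4 and FTH1 were not analysed here. RNA came from peripheral blood mononuclear cells (PBMCs), the lymphocytes and monocytes separated from blood. The dogs were 5 obese animals and 3 normal animals, all of them Beagles. Obese dog 1 was a Dachshund, dog 2 a Chihuahua, dogs 3 and 4 Labrador retrievers, and dog 5 a Welsh Corgi. The labels give no age, sex, treatment or measure of body condition, and breed cannot be told apart from obesity in any comparison. Levels are CPM, counts of tags read near the poly(A) end of a transcript scaled by the TMM method to a common library size, and in such data a level does not scale with transcript length.

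NRF2, encoded by NFE2L2, is a transcription factor that KEAP1 holds in the cytosol and passes on for degradation. Oxidants and electrophiles modify KEAP1, and NRF2 then pairs with a small MAF protein and switches on genes for glutathione synthesis, thioredoxin recycling, heme breakdown and iron storage. Glutathione peroxidases and peroxiredoxins reduce peroxides at the expense of glutathione and thioredoxin, superoxide dismutases and catalase remove superoxide and hydrogen peroxide, and ferritin binds the iron that would otherwise react with peroxide. In blood, red cells and their precursors are rich in PRDX2, catalase and GPX1, and activated myeloid cells induce SOD2.

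Library totals ran from 10264202 to 14910982 counts, and the members together took 0.228 to 0.412% of the counts of an obese dog and 0.348 to 0.485% of those of a normal dog. The T cell gene CD3E, the B cell gene CD79A and the monocyte gene CD14 were present in every library. CD3E ranged from 56.3 to 179 CPM in the obese dogs and 49.2 to 56.7 CPM in the normal dogs. CD79A had 1.59 to 7.03 and 1.90 to 2.62 CPM, and CD14 had 10.1 to 32.6 and 7.19 to 28.3 CPM. Another B cell gene, MS4A1, had 0 CPM in normal dog 2 and at most 4.68 CPM in any dog. Markers of other blood cells differed between libraries. The 10 neutrophil markers, some of which monocytes also express, summed to 6863 CPM in obese dog 3, 191 to 954 CPM in the other obese dogs and 1660 to 6737 CPM in the normal dogs. The 11 erythroid markers summed to 1208 CPM in obese dog 3, 51.2 to 105 CPM in the other obese dogs and 39.5 to 43.5 CPM in the normal dogs. Obese dog 3 stood apart from the other obese dogs in both sums, and results are given with and without it.

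None of the 34 members that passed the filter on low counts differed between the groups at an adjusted p below 0.05 in edgeR's quasi-likelihood test, in a fit in which 48 of 20632 genes did (0.233%, with 0.0485% higher and 0.184% lower in the obese dogs). At an unadjusted p below 0.05 there were 4 members, GPX1 higher and TXN, GCLC and PRDX6 lower, or 11.8% of the members against 15.7% of all genes. The groups did not overlap for 2 members, GPX1 and TXN, or 5.88% against 10.9% of all genes. Neither share of the members exceeded that of all genes. The fold change was positive for 22 members and negative for 12, with a median log2 fold change of 0.21 beside 0.09 for all genes tested. The same counts tested with DESeq2 called GPX1 higher and TXN lower, where 5.06% of genes were called. A limma-voom fit that weights libraries by quality called 6 members, where 17.8% of genes were called, and edgeR without both Labrador retrievers called 3, where 6.58% were.

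**Figure D1:**
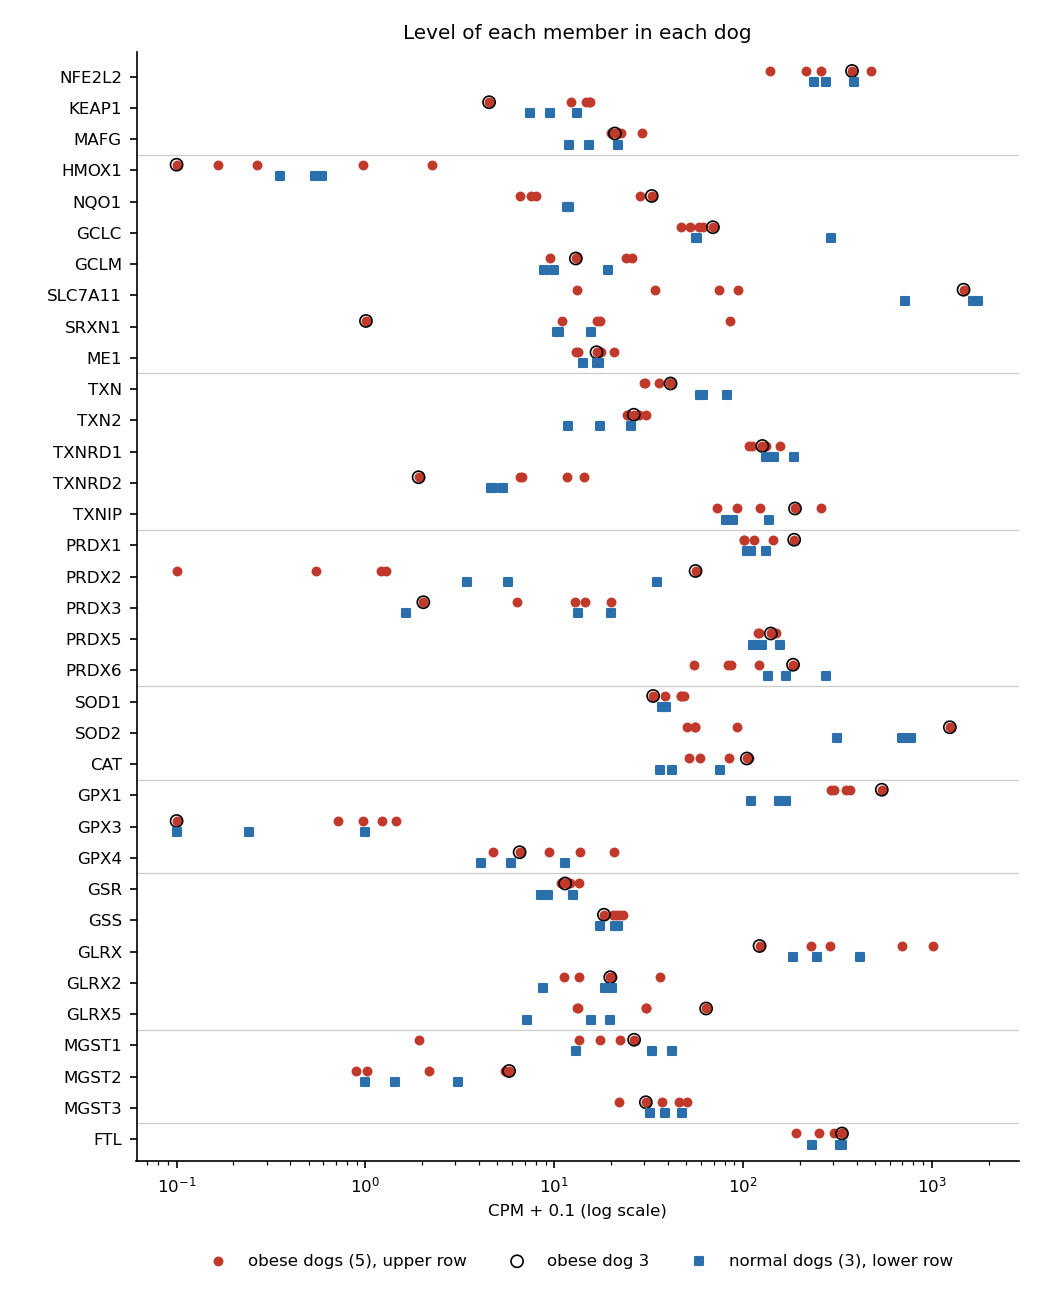
Level of each of the 35 listed members in each dog, as CPM + 0.1 on a log scale, with the obese dogs (red circles) above the normal dogs (blue squares) and obese dog 3 ringed; grey lines separate the role groups. GPX1 and TXN are the 2 tested members whose groups do not overlap, and the ringed point lies far from the other obese dogs for SLC7A11, SOD2 and PRDX2.

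Among the regulators, NFE2L2 itself was abundant and did not separate the groups. It had 478, 258, 378, 217 and 138 CPM in obese dogs 1 to 5, against 237, 387 and 275 CPM in normal dogs 1 to 3. The obese range enclosed the normal range, and the log2 fold change of −0.03 had a 95% interval of −0.88 to 0.82 (adjusted p = 0.980, edgeR). KEAP1, the inhibitor of NRF2, had 12.4 ± 4.64 CPM in the obese dogs and 9.94 ± 2.91 CPM in the normal dogs (SD, n = 5 and 3). MAFG, a small MAF partner of NRF2, had 22.8 ± 3.68 and 16.3 ± 4.97 CPM, with obese dog 1 highest at 29.15 CPM. KEAP1 and MAFG had positive log2 fold changes of 0.32 and 0.48, within their spread (adjusted p = 0.757 and 0.442, edgeR).

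The classical inducible targets of NRF2 did not move as a block. Of the 6 that were tested, 4 had a positive and 2 a negative fold change, and none passed. SLC7A11, the cystine importer that supplies cysteine for glutathione, spanned the widest range of the members above 0 in every dog, 135.5-fold over the 8 dogs. It had 13.04, 34.2, 1475, 94.5 and 75.0 CPM in obese dogs 1 to 5, against 722, 1768 and 1648 CPM in normal dogs 1 to 3. Of the obese dogs, dog 3 lay inside the normal range and the other 4 lay below every normal dog. Over all 8 dogs the log2 fold change was −2.03 with a standard error of 1.31 (adjusted p = 0.494, edgeR). Without obese dog 3 it was −4.70 with a standard error of 0.650 (adjusted p = 0.00478, edgeR). The 2 Labrador retrievers, obese dogs 3 and 4, had 1475 and 94.5 CPM.

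Summed neutrophil markers were 954, 191, 6863, 241 and 204 CPM in obese dogs 1 to 5, against 1660, 6737 and 4314 CPM in normal dogs 1 to 3. The 4 libraries with the highest SLC7A11 levels were the 4 with the highest neutrophil marker sums. Most of each high sum came from S100A8, S100A9 and S100A12, which monocytes also express: the other 7 markers summed to 330, 81.2, 581, 109 and 81.7 CPM in obese dogs 1 to 5, against 188, 500 and 390 CPM in normal dogs 1 to 3, and in that sum obese dog 1 lay above normal dog 1. Of the 10 markers 5 had positive and 5 negative fold changes, with a median log2 fold change of −0.41, and none passed the threshold. The granule genes CAMP and LTF were highest in obese dog 1, at 127 and 156 CPM. Obese dog 1 had the lowest SLC7A11 level of the 8 dogs with the highest neutrophil sum of the 4 low obese dogs. The part of these cells in the level of SLC7A11 was not tested. In bulk RNA, fewer cells of a type and less RNA per cell cannot be told apart.

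GCLC, the catalytic subunit of the enzyme that makes gamma-glutamylcysteine, was at a similar level in 7 of the 8 dogs. It had 61.5, 46.9, 69.3, 52.1 and 58.4 CPM in obese dogs 1 to 5, against 56.3, 292 and 57.2 CPM in normal dogs 1 to 3. Normal dog 2 alone stood above the rest, and the log2 fold change of −1.23 (adjusted p = 0.275, edgeR) was −0.01 without that dog. Its modifier subunit GCLM, which raises the activity of the enzyme, had 17.04 ± 7.32 CPM in the obese dogs and 12.6 ± 5.73 CPM in the normal dogs, with overlapping groups.

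NQO1, a quinone reductase, separated the obese dogs among themselves. It had 28.5 and 32.8 CPM in obese dogs 1 and 3, and 6.48, 7.47 and 7.93 CPM in obese dogs 2, 4 and 5. The normal dogs had 11.95, 11.73 and 11.67 CPM, between these levels. SRXN1, or sulfiredoxin, which restores overoxidised peroxiredoxins, had 85.6, 17.3, 0.907, 10.9 and 16.7 CPM in obese dogs 1 to 5, against 10.5, 15.5 and 10.2 CPM in normal dogs 1 to 3. Obese dog 1 was the highest and obese dog 3 the lowest of all dogs, and the log2 fold change of 1.12 (adjusted p = 0.634, edgeR) was −0.07 without obese dog 1. Summed platelet markers, 6 genes with GP1BB at 0 in every library, were 1184 CPM in obese dog 1, 60.5 to 560 CPM in the other obese dogs and 7.75 to 29.8 CPM in the normal dogs. Their part in the SRXN1 level was not tested.

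ME1, the cytosolic malic enzyme that supplies NADPH, had 16.2 ± 3.21 CPM in the obese dogs and 16.01 ± 1.61 CPM in the normal dogs. Its log2 fold change was 0.02 with a 95% interval of −0.58 to 0.62. ME1 overlaps an uncharacterised gene in the reference annotation, with 1709 counts for ME1 and 1268 for its neighbour over the 8 dogs. HMOX1, heme oxygenase 1, was near the limit of detection and did not pass the filter on low counts. It had 19, 1, 0, 3 and 15 counts in obese dogs 1 to 5, against 7, 4 and 4 counts in normal dogs 1 to 3. The 19 counts of obese dog 1 correspond to 2.16 CPM (95% Poisson interval 1.30 to 3.37), and the upper end of the same interval for the 0 counts of obese dog 3 is 0.419 CPM, both for counting error only.

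**Figure D2:**
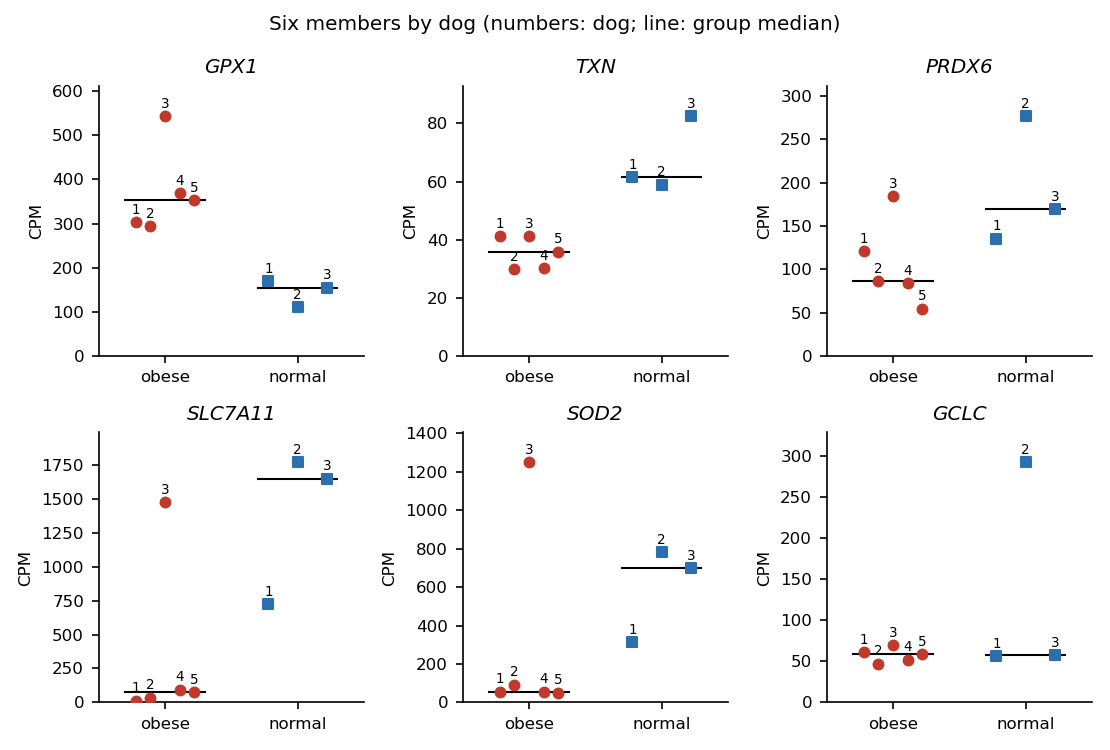
Level in CPM (linear axes from 0) of GPX1, TXN, PRDX6, SLC7A11, SOD2 and GCLC in each dog, with obese dogs left and normal dogs right, the dog's number beside each point and a line at the group median. GPX1 and TXN separate the groups, SLC7A11 and SOD2 do so except for obese dog 3, and GCLC is raised in normal dog 2.

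In the thioredoxin system, the cytosolic thioredoxin TXN, which reduces peroxiredoxins and ribonucleotide reductase, was lower in every obese dog than in any normal dog. It had 41.2, 29.9, 41.3, 30.2 and 35.9 CPM in obese dogs 1 to 5, against 61.4, 58.9 and 82.5 CPM in normal dogs 1 to 3. The groups did not overlap, where 5.16% of all genes were lower without overlap. The log2 fold change was −0.92 (standard error 0.231), which missed the threshold (unadjusted p = 0.00234, adjusted p = 0.123, edgeR). Without obese dog 3 it was −1.01 (adjusted p = 0.0253, edgeR). With any other single dog left out it did not pass (adjusted p = 0.161 to 0.533, edgeR). Summed monocyte markers were 785 to 1740 CPM in the obese dogs and 1595 to 2874 CPM in the normal dogs, and summed plasma cell markers were 94.6 to 210.0 CPM and 189 to 919 CPM. VCAN carried the monocyte difference, with 201 to 851 CPM in the obese dogs and 921 to 2191 CPM in the normal dogs. Without it the sums overlapped, at 584 to 894 CPM in the obese dogs and 675 to 1019 CPM in the normal dogs, and of the 9 monocyte markers 5 had positive and 4 negative fold changes with a median log2 fold change of 0.05. Of the 6 plasma cell markers tested, 5 had negative and 1 a positive fold change, and 4 were lower in the obese dogs without overlap. TNFRSF17 passed the threshold (adjusted p = 0.0228, edgeR). The positive one, XBP1, overlapped, with 51.0 to 128 CPM in the obese dogs and 38.2 to 118 CPM in the normal dogs. The part of either cell type in the level of TXN was not tested.

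The other members of this system had overlapping groups. TXNRD1, the cytosolic reductase that recycles TXN, had 127 ± 19.3 CPM in the obese dogs and 155 ± 28.2 CPM in the normal dogs, and its log2 fold change was −0.28 (95% interval −0.78 to 0.21). The mitochondrial partners had the opposite sign. Mitochondrial thioredoxin, TXN2, had 26.7 ± 2.72 CPM in the obese dogs and 18.2 ± 6.93 CPM in the normal dogs, and its reductase TXNRD2 had 8.17 ± 4.86 and 4.82 ± 0.400 CPM. Their log2 fold changes of 0.55 and 0.77 did not pass (adjusted p = 0.395 and 0.545, edgeR), and whether they differ from that of TXN was not tested. TXNIP, which binds and inhibits thioredoxin and follows glucose supply, had 123, 72.7, 189, 260 and 92.7 CPM in obese dogs 1 to 5, against 81.6, 88.3 and 138 CPM in normal dogs 1 to 3. The normal range lay inside the obese range.

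Among the peroxiredoxins, PRDX1 and PRDX5 were level across the groups and PRDX6 was lower in most obese dogs. PRDX1, the main cytosolic peroxiredoxin under NRF2 control, had 130 ± 36.4 CPM in the obese dogs and 116 ± 14.2 CPM in the normal dogs. PRDX5, found in several compartments, had 135 ± 13.2 and 132 ± 22.9 CPM, and its log2 fold change of 0.03 had a 95% interval of −0.44 to 0.50. PRDX5 overlaps TRMT112 in the reference annotation, with 13983 counts for PRDX5 and 8521 for TRMT112 over the 8 dogs (r = 0.623, descriptive). The sources used here do not give the strand setting of the counts, and whether the 2 genes share reads was not tested. PRDX6, which also acts on oxidised phospholipids, had 121, 85.9, 184, 83.8 and 54.7 CPM in obese dogs 1 to 5, against 135, 277 and 170 CPM in normal dogs 1 to 3. All obese dogs but dog 3 were below the normal dogs. Its log2 fold change was −0.87 with a standard error of 0.384 (unadjusted p = 0.0456, adjusted p = 0.308, edgeR), and −1.20 without obese dog 3 (adjusted p = 0.0441, edgeR). The 4 libraries with the highest PRDX6 levels were the 4 with the highest neutrophil marker sums. That match did not hold for the sum without S100A8, S100A9 and S100A12, in which obese dog 1 lay above normal dog 1. The part of those cells in the level of PRDX6 was not tested.

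PRDX3, the mitochondrial peroxiredoxin, had 6.24, 19.8, 1.93, 14.4 and 12.8 CPM in obese dogs 1 to 5, against 19.9, 1.55 and 13.2 CPM in normal dogs 1 to 3. The low values were shared by obese dog 3 and normal dog 2, the 2 libraries with the most neutrophil marker RNA. The part of those cells in the level of PRDX3 was not tested. PRDX2, a peroxiredoxin abundant in red cells, was highest in those same 2 libraries. It had 0, 18, 494, 8 and 19 counts in obese dogs 1 to 5, against 48, 317 and 88 counts in normal dogs 1 to 3. In CPM, obese dog 3 and normal dog 2 had 56.0 and 35.1, the other obese dogs at most 1.19, and the other normal dogs 3.37 and 5.61. PRDX2 overlaps THSD8 in the reference annotation, whose counts moved with it (r = 0.966 over the 8 libraries, descriptive). The 2 genes may share reads, which was not tested. The log2 fold change of PRDX2 was −0.33 with a standard error of 1.73, and −4.36 without obese dog 3 (adjusted p = 0.0300, edgeR). Erythroid markers summed to 1208 CPM in obese dog 3 and 39.8 CPM in normal dog 2, and the part of erythroid cells in the level of PRDX2 was not tested.

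**Figure D3:**
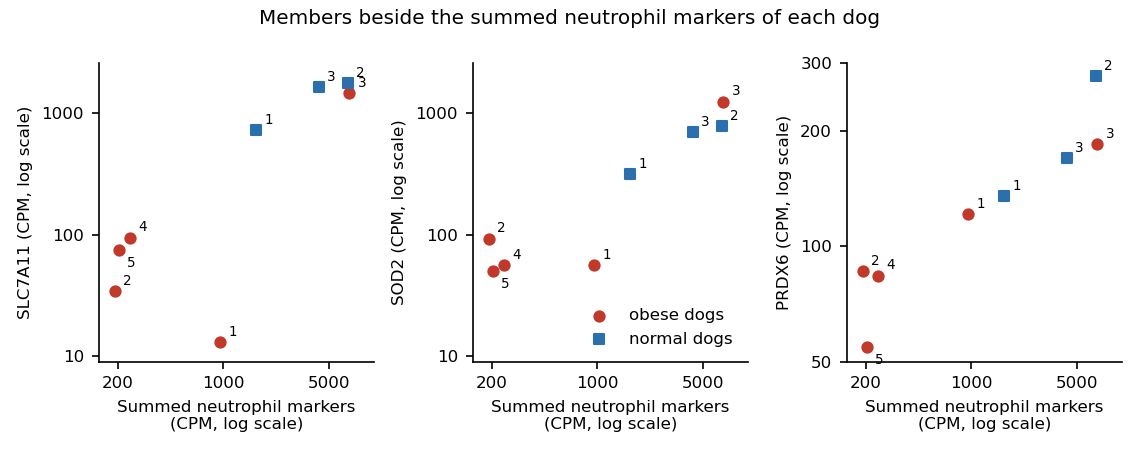
SLC7A11, SOD2 and PRDX6 (CPM, log scale) against the summed CPM of 10 neutrophil markers (log scale) in each dog, with obese dogs as red circles, normal dogs as blue squares and the dog's number beside each point. Obese dog 3 lies with the normal dogs in each plot, and the other 4 obese dogs lie at lower levels of both measures. Most of each high sum comes from S100A8, S100A9 and S100A12, which monocytes also express.

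SOD2, the mitochondrial superoxide dismutase, was high in the same 4 libraries as SLC7A11, those of obese dog 3 and the normal dogs. It had 55.8, 92.8, 1248, 55.9 and 50.2 CPM in obese dogs 1 to 5, against 314, 781 and 700 CPM in normal dogs 1 to 3. Obese dog 3 had the highest level of all dogs, and the other 4 obese dogs lay below every normal dog. The log2 fold change was −0.99 with a standard error of 1.12 over all dogs (adjusted p = 0.707, edgeR) and −3.27 with a standard error of 0.357 without obese dog 3 (adjusted p = 0.00171, edgeR). As for SLC7A11, the 4 libraries with high SOD2 were those with the highest neutrophil marker sums. Without S100A8, S100A9 and S100A12, obese dog 1 lay above normal dog 1 in that sum (330 and 188 CPM). The part of those cells in the level of SOD2 was not tested.

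SOD1, the cytosolic copper and zinc enzyme, was among the most even members. It had 42.9 ± 6.66 CPM in the obese dogs and 38.1 ± 0.974 CPM in the normal dogs, a log2 fold change of 0.17 with a 95% interval of −0.33 to 0.67. Catalase, CAT, had 108, 59.4, 105, 83.9 and 51.7 CPM in obese dogs 1 to 5, against 41.8, 36.4 and 75.9 CPM in normal dogs 1 to 3. The groups overlapped through normal dog 3, and the log2 fold change of 0.67 had an adjusted p of 0.385 (edgeR).

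GPX1, the selenium-dependent peroxidase that reduces hydrogen peroxide with glutathione, had the smallest p of the members. It had 303, 294, 544, 368 and 353 CPM in obese dogs 1 to 5, against 170, 110 and 154 CPM in normal dogs 1 to 3. Every obese dog lay above every normal dog, where 5.75% of all genes were higher without overlap. The log2 fold change was 1.36 with a standard error of 0.289, or 2.57-fold, and the test ranked GPX1 at 172 of the 20632 genes (unadjusted p = 0.000740, adjusted p = 0.0888, edgeR). Without obese dog 3 it was 1.15 (adjusted p = 0.0185, edgeR), where 8.28% of all genes were called. Without both Labrador retrievers, which also leaves out dog 3, it was 1.12 (adjusted p = 0.0369, edgeR), where 6.58% were called. With any single dog other than obese dog 3 left out GPX1 did not pass (adjusted p = 0.122 to 0.398, edgeR).

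Marker sums of 3 other cell types also separated the groups. The 10 T cell markers summed to 518 to 1488 CPM in the obese dogs and 311 to 420 CPM in the normal dogs, the erythroid markers to 51.2 to 1208 and 39.5 to 43.5 CPM, and the platelet markers to 60.5 to 1184 and 7.75 to 29.8 CPM. Without obese dog 3 the erythroid sums were 51.2 to 105 CPM in the obese dogs and 39.5 to 43.5 CPM in the normal dogs. Of the 10 erythroid markers tested, 9 had positive and 1 a negative fold change, and 1 had groups without overlap. GYPC, whose groups overlapped, made up much of the low sums. It gave 55.8 of 79.0 CPM in obese dog 4 and 26.0 of 43.5 CPM in normal dog 1, but 22.7 of 1208 CPM in obese dog 3. The part of T cells, erythroid cells and platelets in the level of GPX1 was not tested.

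GPX4, which reduces lipid hydroperoxides in membranes, had 10.9 ± 6.40 CPM in the obese dogs and 7.04 ± 3.82 CPM in the normal dogs, with overlapping groups (log2 fold change 0.64, adjusted p = 0.599, edgeR). GPX3, the secreted plasma form, had 12, 17, 0, 11 and 15 counts in obese dogs 1 to 5, against 2, 0 and 14 counts in normal dogs 1 to 3. A count of 0 allows up to 0.340 CPM in obese dog 3 and 0.332 CPM in normal dog 2 (limits of 3 counts, counting error only), and the groups overlapped.

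GSS, GSR, GLRX, GLRX2 and GLRX5, which make, recycle or use glutathione, had positive fold changes, and none of the 5 passed the threshold. GSS, glutathione synthetase, was the most even member, with a 1.34-fold range over the 8 dogs and 21.0 ± 1.82 CPM in obese and 19.97 ± 2.37 CPM in the normal dogs. GSR, which reduces oxidised glutathione, had 11.8 ± 1.02 and 10.04 ± 2.17 CPM. Both overlap another gene in the reference annotation, GSS with MYH7B and GSR with UBXN8. UBXN8 had 4526 counts over the 8 dogs, more than the 1177 of GSR.

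GLRX, the cytosolic glutaredoxin that removes glutathione from proteins, was the most abundant member by mean in the obese dogs. It had 696, 1020, 122, 290 and 229 CPM in obese dogs 1 to 5, against 419, 183 and 245 CPM in normal dogs 1 to 3. Obese dogs 1 and 2 were above every normal dog, and obese dog 3 was below every normal dog. The log2 fold change was 0.74 with a standard error of 0.639 (adjusted p = 0.611, edgeR). The same 2 obese dogs had the highest platelet marker sums, and the part of platelets was not tested. GLRX overlaps an uncharacterised long noncoding RNA with nearly the same counts (43235 for GLRX and 43810 for the RNA over the 8 dogs). The 2 may share reads, which was not tested.

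The mitochondrial glutaredoxins were less abundant. GLRX2 had 20.1 ± 9.87 CPM in obese and 15.7 ± 6.20 CPM in the normal dogs. GLRX5, which passes on iron-sulfur clusters and is needed for heme synthesis in erythroid cells, had 30.6, 30.4, 63.7, 13.2 and 13.2 CPM in obese dogs 1 to 5, against 19.7, 7.08 and 15.6 CPM in normal dogs 1 to 3. Its highest level was in obese dog 3, the dog with the highest erythroid marker sum, and the part of erythroid cells was not tested. The log2 fold change of 1.09 (adjusted p = 0.381, edgeR) was 0.59 without that dog.

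The microsomal glutathione transferases, membrane enzymes that also take part in the synthesis of lipid mediators, had 3 members, and none of them passed the threshold. MGST1 had 1.82, 13.4, 26.4, 22.1 and 17.5 CPM in obese dogs 1 to 5, against 32.8, 12.95 and 41.9 CPM in normal dogs 1 to 3, with obese dog 1 far below the rest. MGST2 had at most 5.67 CPM in any dog. MGST3 had 37.2 ± 11.5 CPM in the obese dogs and 39.3 ± 7.69 CPM in the normal dogs, a log2 fold change of −0.08 with a 95% interval of −0.75 to 0.59.

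Of the ferritin subunits, the light chain FTL was analysed. It had 333, 304, 335, 251 and 192 CPM in obese dogs 1 to 5, against 231, 328 and 336 CPM in normal dogs 1 to 3. The groups overlapped over most of their range, and the log2 fold change of −0.07 had a 95% interval of −0.65 to 0.50 (adjusted p = 0.918, edgeR). Ferritin genes have processed copies in mammalian genomes, and the sources used here do not say how reads that match several places were counted.

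**Figure D4:**
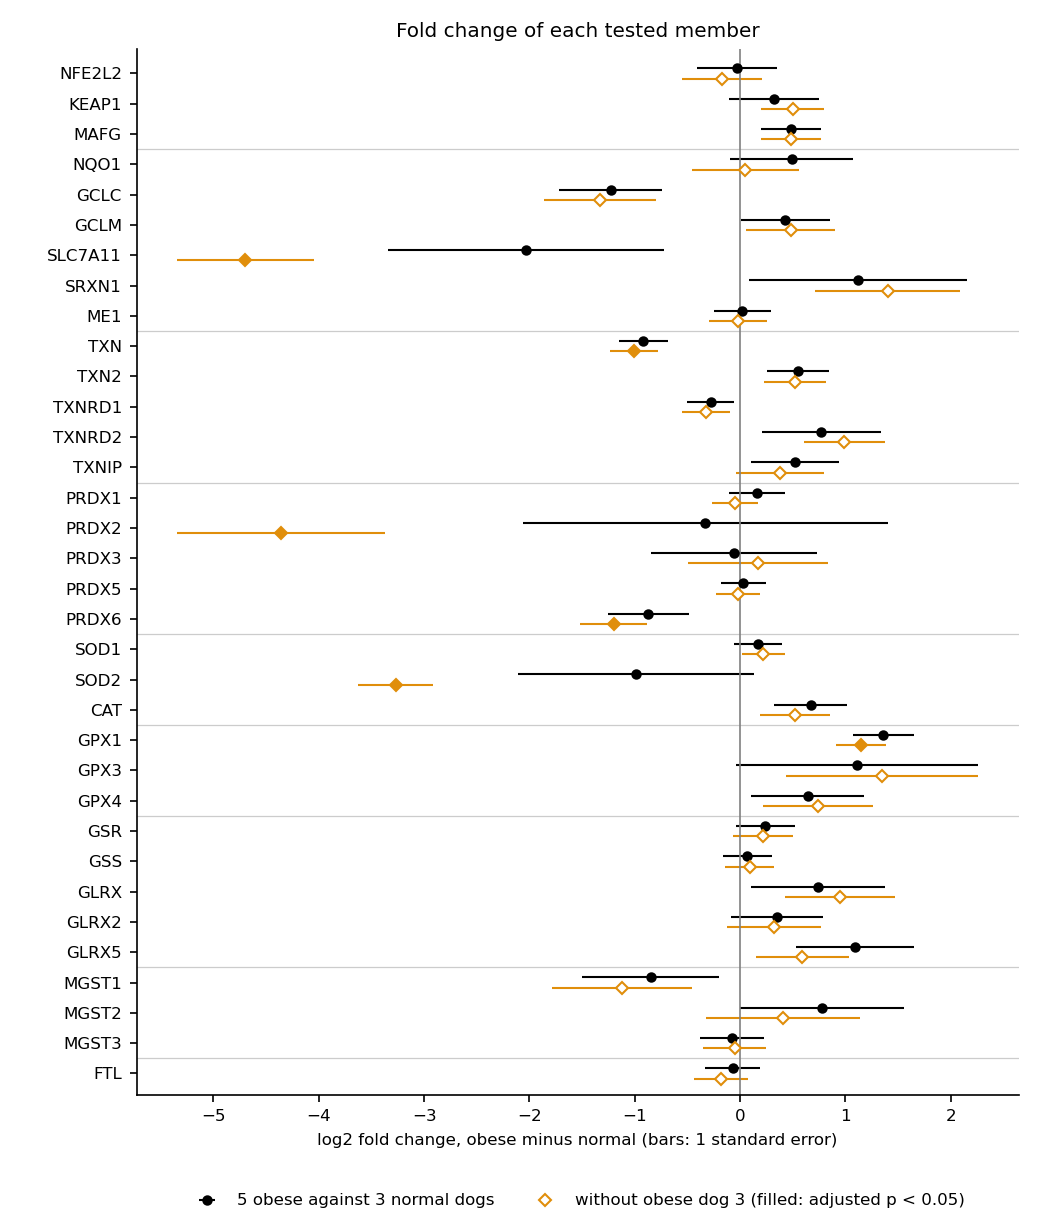
Log2 fold change (obese minus normal, bars of 1 standard error) of the 34 tested members, in black over all 5 obese dogs and in orange without obese dog 3, filled where the adjusted p is below 0.05. The orange points of SLC7A11, PRDX2 and SOD2 lie more than 2 log2 units below the black ones, and those of GPX1 and TXN lie near them.

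Members differed widely in how much they varied. Over the 8 dogs 8 members stayed within a 2-fold range, which were GSS, PRDX5, SOD1, ME1, GSR, TXNRD1, FTL and PRDX1. The 6 members that ranged over 20-fold, or had 0 counts in a dog, were SLC7A11, SRXN1, SOD2, MGST1, PRDX2 and GPX3. How many of all genes fall in either range was not counted. The median standard deviation of log2(CPM + 0.5) was 0.63 for the members and 0.60 for all genes tested. Among those with a mean of at least 5 CPM it was 0.61 for 32 members and 0.52 for 12539 genes.

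Which members passed the threshold depended on obese dog 3 and on the test used. With all 8 dogs edgeR called none, DESeq2 called GPX1 and TXN, and limma-voom with quality weights called 6. The shares of all genes called by the last 2 were 5.06% and 17.8%. Without obese dog 3, in the edgeR fit of 4 obese and 3 normal dogs, GPX1 passed as higher at an adjusted p below 0.05. SLC7A11, SOD2, PRDX2, PRDX6 and TXN passed as lower in that fit. The limma-voom fit of all 8 dogs called the same 6 members, or 17.6% of the 34 tested, where 17.8% of all genes were called. In the edgeR fit without obese dog 3 the 6 members are the same 17.6%. There 8.28% of 20344 genes were called (3.25% higher and 5.03% lower). In the same 7 dogs the groups did not overlap for 7 of the 34 members, 20.6%, where 25.2% of all genes tested had groups without overlap. No member passed in the 7 fits that left out another dog, in which at most 0.151% of genes were called. Obese dog 3 was singled out after its values were seen, so this fit describes the other dogs and does not replace the comparison of all 8.

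Other genes of the same pathways, from 3 lists, gave no call among 79 tested in edgeR. In the list of other NRF2 pathway genes, 16 of 24 fold changes were positive, with a median of 0.13. Its smallest p belonged to ABCC1, an exporter of glutathione conjugates, with 44.4 ± 10.2 CPM in the obese dogs and 21.6 ± 4.23 CPM in the normal dogs and no overlap (log2 fold change 1.04, adjusted p = 0.140, edgeR). EPHX1, an epoxide hydrolase, had a log2 fold change of 0.98, and SQSTM1, an autophagy adaptor that binds KEAP1, had 0.33.

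In the list of other glutathione and thioredoxin genes, 15 of 29 were positive and the median was 0.07. TXNDC5, a thioredoxin-domain protein of the endoplasmic reticulum that plasma cells express strongly, had 21.2 ± 9.07 CPM in the obese dogs and 107 ± 61.1 CPM in the normal dogs (a difference of −2.34 log2 units, adjusted p = 0.0680, edgeR). Its groups did not overlap, in libraries whose plasma cell marker sums were 94.6 to 210.0 CPM in obese and 189 to 919 CPM in the normal dogs, and the part of those cells was not tested. GSTZ1, a glutathione transferase of tyrosine breakdown, had a log2 fold change of −2.59, and GSTO1, an omega class transferase, had 0.72.

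In the list of other iron handling genes, 12 of 26 were positive and the median was −0.03. The ferrireductases STEAP3 and STEAP4 had log2 fold changes of −1.94 and −1.50 (adjusted p = 0.132 and 0.228, edgeR). STEAP3 had 2.47 ± 1.39 CPM in the obese dogs and 9.44 ± 2.64 CPM in the normal dogs without overlap. HFE, a regulator of iron uptake, had 11.6 ± 5.66 CPM in the obese dogs and 4.99 ± 2.05 CPM in the normal dogs, a log2 fold change of 1.22 (adjusted p = 0.257, edgeR).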

How the data were processed

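Whole-number counts per gene, not normalized, were deposited by the authors as 1 table per dog. Per the labels' protocols, Trizol RNA went into Lexogen QuantSeq 3′ libraries. Bowtie2 and bedtools appear in the submitters' processing notes; the sources used here give no versions, build, annotation or strand setting. The tables held 35048 rows; 411 repeat a symbol, no member among them, and were kept under their own names. Overlaps are of whole gene spans, from the coordinates in a RefSeq gene table (UU_Cfam_GSD_1.0) that holds 33000 of the symbols. The coordinates are not printed here.

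Counts were fitted in R 4.3.3 with edgeR 4.0.16 (filterByExpr by group, TMM, robust glmQLFit and glmQLFTest, Benjamini-Hochberg over all 20632 genes tested, threshold 0.05). Fold changes are obese over normal, and standard errors were derived from the fold change and the F statistic. Alternatives used DESeq2 1.42.0 and limma 3.58.1. In simulated counts with these depths and spreads (19994 genes), edgeR called 0% of 2-fold, 31.9% of 4-fold and 60% of 8-fold changes. Each library is a separate dog per the labels, and no 2 libraries agreed within sampling noise (chi-square per degree of freedom at least 40.5). Intervals and limits at 0 counts cover counting error only, since no molecular identifiers were counted. The members, lists and markers were chosen with earlier results of these data known. The genes named are all members and the 3 with the smallest p of each further list. Promoter sequences were not analysed here.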

Additional observations from a re-analysis of the deposited data

Results flagged for a closer look

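Among the 35 listed members, 5 had an obese dog far from the other 4, by the gap to its nearest neighbour relative to the range of the group. For normally distributed values such a gap arises by chance in about 1 of 20 groups. Whether CPM values follow that distribution was not tested, so the rate may not hold here, and the groups share libraries. The share of all genes with such a gap was not counted, so the 14.3% of members cannot be called particular to them. SLC7A11 had 1475 CPM in obese dog 3, against 13.04 to 94.5 CPM in the other obese dogs. SOD2 had 1248 CPM in obese dog 3, against 50.2 to 92.8 CPM in the others. PRDX2 had 56.0 CPM in obese dog 3, against 0 to 1.19 CPM in the others. SRXN1 had 85.6 CPM in obese dog 1, against 0.907 to 17.3 CPM in the others, and MAFG had 29.15 CPM in obese dog 1, against 19.8 to 22.5 CPM.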

How the results depend on the processing

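Over the 34 tested members and 16 alternatives, 21 members kept the sign of their fold change throughout and 13 changed it. With upper-quartile factors ME1 and PRDX5 had −0.10 and GSS −0.05. In the limma-voom fit with quality weights NQO1 had −0.39, ME1 −0.13, PRDX3 0.20, GLRX2 −0.03 and MGST3 0.06. Without both Labrador retrievers, an alternative chosen after seeing the data, TXNIP had −0.10, PRDX1 −0.02, PRDX3 0.16 and PRDX5 −0.03. When 1 dog was left out in turn, the log2 fold change ran from −0.07 to 1.40 for SRXN1, −0.09 to 0.09 for ME1, −0.61 to 0.59 for PRDX3, −0.10 to 0.15 for PRDX5, −0.23 to 0.09 for MGST3, −0.28 to 0.17 for NFE2L2, −0.05 to 0.27 for PRDX1, −0.22 to 0.03 for FTL, −4.36 to 1.35 for PRDX2 and −0.05 to 0.12 for GSS. The same fits gave 0 to 661 genes higher and 2 to 1023 lower over all genes, 0 to 1 members higher and 0 to 5 lower, 0 to 2 other pathway genes higher and 0 to 5 lower, and a member median of 0.11 to 0.40. The counts of genes higher and lower were 613 and 434 with DESeq2, 1743 and 1926 with limma-voom, and 558 and 741 without both Labrador retrievers. The counts of members were 1 and 1, 1 and 5, and 1 and 2 in these fits, and those of other pathway genes 1 and 3, 7 and 7, and 1 and 5. The cause of these differences was not tested.

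The dog numbers occur in both groups but name different animals. With a replicate block for the number, 0 genes were higher and 0 lower, the member median was 0.15, NFE2L2 had 0.30 and FTL 0.14. Deviations of same-numbered dogs had correlations of −0.029, −0.209 and 0.005, and no normal dog correlated best with its own number. DESeq2 gave no adjusted p for SLC7A11, GCLC and PRDX2. In simulated counts 0% of 2-fold and 31.9% of 4-fold changes were called. The changed genes were drawn at random over all levels and spreads, so these rates do not apply to a single member such as GPX1.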
